A study of Mus musculus with 6 samples.

Results

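The genes described here encode receptors of the Hedgehog pathway and the factors that carry its signal to the nucleus. They are Ptch1, Smo, Gli1, Gli2, Gli3, Hhip, Sufu, Gas1 and Boc. They were picked by name, with earlier results of these data known. Each of the 9 symbols was found once among the 35976 genes of the count table. Polyadenylated RNA was sequenced from mouse embryonic chondrocytes, the matrix-producing cells of cartilage, which came from hind limb articular cartilage at embryonic day 18.5 (strain C57BL/6 x 129S4/SvJae). All cells were expanded in monolayer through 16 population doublings in medium with serum and ascorbate-2-phosphate. All cells also received 2 µg/ml doxycycline, which induces a transgene for histone H3.3. In the H3K9M group (3 libraries, replicates 1, 3 and 5) the transgene has methionine in place of lysine 9, and the genotype label calls H3K9 methylation suppressed. In the H3WT group (3 libraries, replicates 1, 2 and 4) it is wild-type H3.3, so controls carry doxycycline and an H3.3 transgene too. The promoter that drives the transgene is not given in the sources used here. Nothing in the labels says whether libraries of a group came from separate embryos or cultures, so p-values measure the spread between these libraries, which may be technical.

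In the absence of ligand, the membrane protein Ptch1 holds the transducer Smo inactive, and Sufu keeps the Gli transcription factors in check. When a Hedgehog protein binds Ptch1 with the help of the coreceptors Gas1, Boc and Cdon, Smo enters the primary cilium and Gli2 and Gli3 act as activators in place of repressors. Gli1, Ptch1 and Hhip are themselves targets of the pathway, so their transcripts are often used to read its output. In the growth plate, Indian hedgehog (Ihh) is made by chondrocytes that are about to become hypertrophic, and it controls chondrocyte proliferation and maturation. Methylation of H3 lysine 9 is a mark of silenced chromatin. The comparison asked how transcripts of expanded chondrocytes differ when this methylation is suppressed.

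Libraries held 15113675 to 19606082 counts. The label was checked with 9 chondrocyte markers, among them Col2a1, Acan and Sox9, and 9 of 9 had counts. Their summed level was 7317 to 11442 CPM (TMM-normalised read counts per unit of library size) in H3K9M and 7219 to 19043 CPM in H3WT. On the first principal component of all tested genes (35.5% of the variance) the groups mixed, with H3K9M replicate 3 (51.0) closest to replicate 2 of H3WT (49.1). On the second (28.8%) they were apart, from 19.0 to 39.8 in H3K9M and from -71.5 to -11.4 in H3WT. No gene among the 13761 tested had an adjusted p under 0.05 (0%, edgeR quasi-likelihood test, Benjamini-Hochberg), and 12.2% had an unadjusted p under 0.05. On the same genes limma-voom called 0 and the DESeq2 Wald test 390. DESeq2 called 365 of 19994 genes when no filter on low counts was applied first. Its own default filter on mean counts was left on in both fits. In simulated counts 26.3% of the calls by DESeq2 were false, against 9.89% by edgeR, both above the nominal 0.05. Those counts were drawn gene by gene from edgeR's own estimates of spread, so they do not rank the methods on these data. Where counts were simulated 3 times with the observed spread, edgeR called 35.3% of the genes given a 2-fold change and 71% of those given a 4-fold change.

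Among the Hedgehog genes, 8 of 9 passed the filter on low counts, and 0 of the 8 had an adjusted p under 0.05 by edgeR or limma-voom. DESeq2 called 1 of them, Smo, on the genes that passed the filter, and 0 without the filter. All 8 had a negative log2 fold change in the edgeR fit (H3K9M minus H3WT, negative meaning lower in H3K9M), where 50.4% of all tested genes did. The sign held in every alternative fit for 6 of them, but not for Gli1 and Boc. Their median was -0.39, against -0.0029 over all tested genes. Markers of the chondrocytes themselves were also measured lower, but those of the articular surface were mixed. Of the 3 articular surface markers, 2 had a positive log2 fold change and 1 a negative one. Their summed level was 154 to 195 CPM in H3K9M and 103 to 146 CPM in H3WT, without overlap. Prg4 was higher in every H3K9M library (log2 fold change 0.74, edgeR adjusted p 0.180), while the groups overlapped for Gdf5 and Erg. All 9 chondrocyte markers had a negative log2 fold change (median -0.61), but the groups overlapped for all 9. H3WT replicate 2 was the highest library for all of these markers except Comp. H3WT replicate 1 was the lowest library for Col2a1 (4913 CPM) and Acan (136 CPM). An unadjusted p under 0.05 was found for 1 of the 9 (11.1%, where all tested genes had 12.2%). All 7 tested markers of prehypertrophic and hypertrophic chondrocytes, the cells that make Ihh, also had a negative log2 fold change (median -1.24). Pth1r, Ibsp and Sp7, 3 of the 7, had an unadjusted p under 0.05 (42.9%, where all tested genes had 12.2%). Sp7 was also listed as an osteoblast marker. Pth1r is the receptor for parathyroid hormone-related protein. It had 9.11, 5.99 and 6.94 CPM in H3K9M and 30.9, 15.8 and 23.5 CPM in H3WT (edgeR adjusted p 0.170). The log2 fold change was only -0.14 for Col10a1 (edgeR adjusted p 0.942) and -0.09 for Runx2 (edgeR adjusted p 0.930), with overlapping groups. The summed level of all 8 of these markers overlapped, at 238 to 304 CPM in H3K9M and 236 to 477 CPM in H3WT. The part of these markers in the Hedgehog values was not tested. In 4 of the 8, Smo, Sufu, Gli3 and Ptch1, every H3K9M library lay below every H3WT library. That pattern was found in 8.68% of all tested genes. An unadjusted p under 0.05 was found for Smo and Sufu, 2 of the 8, and 5.77% of all tested genes met it in that direction. The 8 genes were measured in the same 6 libraries and are not independent of each other.

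**Figure D1:**
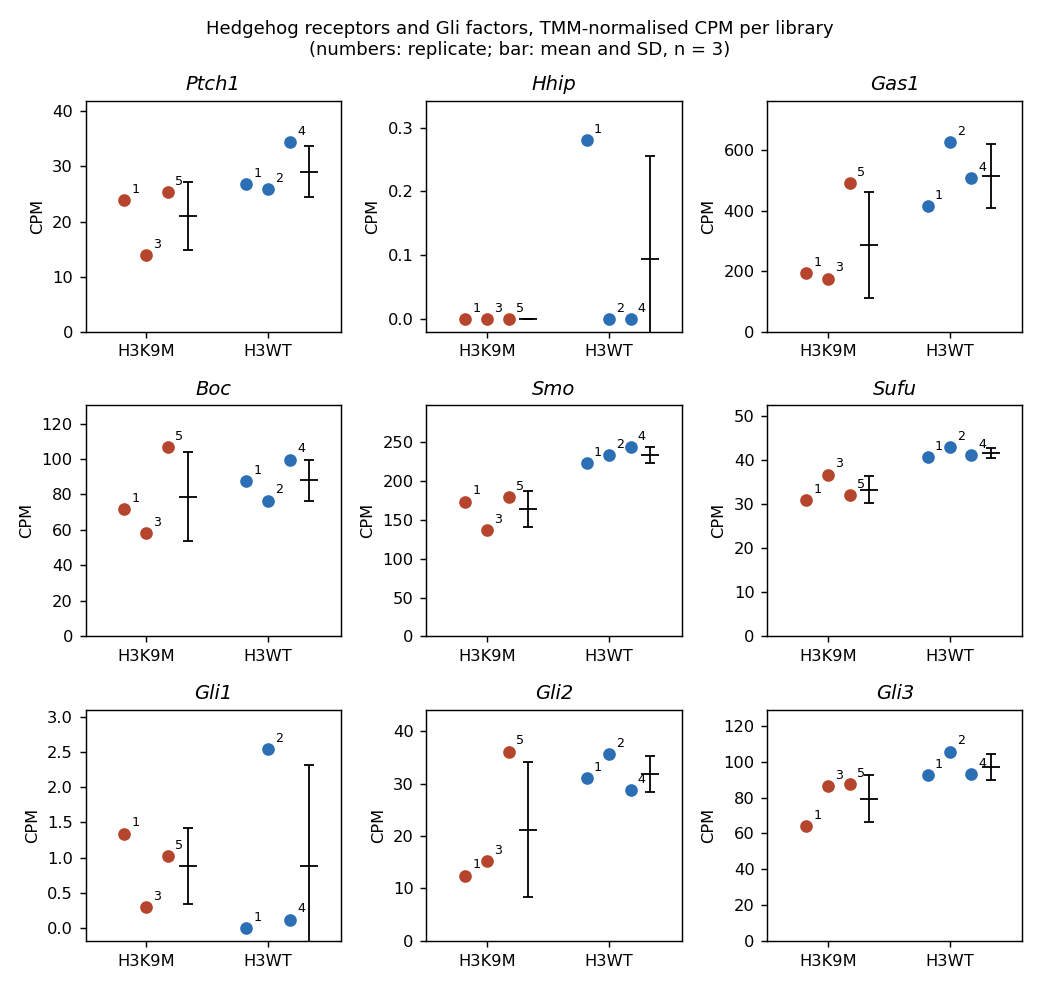
TMM-normalised CPM (vertical axis, linear, a separate scale for each gene) of the 9 genes in each library, with H3K9M in red and H3WT in blue, the replicate number beside each point and the mean with its SD (n = 3) as a bar. For Smo, Sufu, Gli3 and Ptch1 the 3 red points lie below the 3 blue points, while H3K9M replicate 5 lies within the H3WT range for Gas1 and just above it for Gli2.

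Levels between genes can be compared only per transcript length, here as CPM per kilobase of the longest annotated transcript, averaged over the 6 libraries. Gas1 came first with a mean of 136 CPM per kilobase and Smo second with 52.5, and the ranges of these neighbours overlapped. Boc followed with 18.7, separated from Smo above and from Gli3 below. Gli3 (10.8) and Sufu (8.26) overlapped in range. Gli2 (1.88 to 5.44 over the libraries) and Ptch1 (1.34 to 3.31) also overlapped, and lay below Sufu without overlap. Gli1 (0.218) and Hhip (0.00516) were last, with overlapping ranges. The coreceptor and transducer transcripts thus exceeded those of the pathway targets Ptch1, Gli1 and Hhip per unit length in these cells. By CPM without division by length the order differed only in that Gli3 stood above Boc.

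Ptch1, the receptor that binds Hedgehog ligands and restrains Smo, lies on chromosome 13 (63508328 to 63573460, minus strand; coordinates here are from RefSeq on GRCm38.p6, the assembly of the build mm10 that the submitters name). It had 23.8, 13.9 and 25.3 CPM in H3K9M replicates 1, 3 and 5 and 26.8, 25.9 and 34.3 CPM in H3WT replicates 1, 2 and 4. H3K9M replicate 3 was the lowest library and H3WT replicate 4 the highest, and the other 4 were close together. The means were 21.0 ± 6.20 CPM and 29.0 ± 4.63 CPM (SD, n = 3 each), with a log2 fold change of -0.47 (edgeR adjusted p 0.491, SE 0.25). The difference was -0.23 without H3K9M replicate 3.

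Smo, the membrane protein that transmits the signal once Ptch1 releases it, is on chromosome 6 (29735497 to 29761366, plus strand). Its level was 174, 137 and 180 CPM in H3K9M replicates 1, 3 and 5, and 223, 233 and 244 CPM in H3WT replicates 1, 2 and 4. The 3 H3WT libraries lay within a narrow span and all 3 H3K9M libraries lay under it. The means were 163 ± 23.2 CPM and 233 ± 10.6 CPM, and the log2 fold change was -0.51 (SE 0.14). Smo had the smallest p of the 8 genes (unadjusted 0.00537 and adjusted 0.239, edgeR), which placed it at rank 306 of the 13761 genes. In each of the 13 alternative fits its log2 fold change was negative, between -0.58 and -0.39, and its unadjusted p was under 0.05. Its adjusted p passed the threshold in 1 of those fits, DESeq2 on the filtered genes (0.0452), which was added after the data were seen, and was 0.0773 to 0.511 in the other 12. A transcript of Gm4066 shares at least 90% identity with Smo over 200 or more bases, so some reads could be split between them.

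Sufu, a cytoplasmic protein that binds Gli factors and restrains them, is on chromosome 19 (46396896 to 46488804, plus strand). It had 30.8, 36.7 and 32.1 CPM in H3K9M replicates 1, 3 and 5 and 40.7, 42.9 and 41.0 CPM in H3WT replicates 1, 2 and 4. The libraries of each group lay close together, with no overlap between the groups. The log2 fold change was -0.32 (edgeR unadjusted p 0.0476, adjusted p 0.406, SE 0.14), on means of 33.2 ± 3.08 CPM and 41.5 ± 1.20 CPM. Sufu inhibits the pathway while Smo activates it, and both were measured lower in H3K9M, neither past the correction for multiple testing in the edgeR fit. The unadjusted p of Sufu was under 0.05 in 4 of the 13 alternative fits.

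The sequence before the start of these genes is shown for the 4 members whose groups did not overlap, since their transcripts were the ones measured lower in every H3K9M library. Each run is the 250 bases before the annotated start, 5′ to 3′ on the gene's strand, from RefSeq on GRCm38.p6. Capitals mark the GC box GGGCGG, in either orientation, a motif bound by Sp1-family factors. The windows are chr6:29735247-29735496 (plus strand) for Smo, chr19:46396646-46396895 (plus strand) for Sufu, chr13:15463473-15463722 (plus strand) for Gli3 and chr13:63565736-63565985 (minus strand) for Ptch1. The Ptch1 window precedes a start inside the gene, which has other starts upstream. All 250 bases of the Gli3 window lie in annotated exon sequence of another gene, Gm6556.
Smo: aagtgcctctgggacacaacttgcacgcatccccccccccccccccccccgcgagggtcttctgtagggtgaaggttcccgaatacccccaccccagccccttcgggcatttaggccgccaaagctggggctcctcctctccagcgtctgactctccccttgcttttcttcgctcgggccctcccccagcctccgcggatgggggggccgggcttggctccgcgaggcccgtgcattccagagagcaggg
Sufu: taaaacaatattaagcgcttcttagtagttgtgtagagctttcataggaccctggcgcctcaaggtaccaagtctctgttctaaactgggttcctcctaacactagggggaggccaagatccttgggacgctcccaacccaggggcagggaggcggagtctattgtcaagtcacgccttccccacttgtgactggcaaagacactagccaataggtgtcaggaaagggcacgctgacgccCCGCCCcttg
Gli3: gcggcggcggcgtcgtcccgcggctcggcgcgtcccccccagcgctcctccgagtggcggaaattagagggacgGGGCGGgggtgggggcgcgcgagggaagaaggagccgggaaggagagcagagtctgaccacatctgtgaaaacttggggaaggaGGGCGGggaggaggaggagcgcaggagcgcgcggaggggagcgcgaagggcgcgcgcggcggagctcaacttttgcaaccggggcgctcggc
Ptch1: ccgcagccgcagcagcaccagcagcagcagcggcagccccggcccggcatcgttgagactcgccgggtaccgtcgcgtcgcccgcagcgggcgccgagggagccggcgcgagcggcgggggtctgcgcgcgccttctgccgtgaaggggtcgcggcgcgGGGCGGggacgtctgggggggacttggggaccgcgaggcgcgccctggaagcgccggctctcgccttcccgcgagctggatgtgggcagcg
Promoters of 7 of the 9 genes were matched in the RefSeq table. The Gli consensus GACCACCCA was searched on both strands and was found in 0 of these 7 windows and in 0.225% of all 32851 windows. Its core CCACCCA, which the longer motif contains, was found in 0 of the 7 and in 8.11% of all windows. The GC box was present in 6 of the 7, Smo being the one without it, and in 32.7% of all windows. G and C made up 78.4% of the window in Ptch1, 72.8% in Gli3 and 68.4% in Smo, while Sufu, at 54.0%, was close to the median of all windows (52.4%). The GC box was added to the search after the values were seen.

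Gas1, a membrane-anchored protein that binds Hedgehog ligands with Ptch1, is a gene of chromosome 13 (60174405 to 60177535, minus strand). It had 194, 176 and 490.4 CPM in H3K9M replicates 1, 3 and 5, and 414, 626 and 509 CPM in H3WT replicates 1, 2 and 4. Replicates 1 and 3 of H3K9M were far below every other library, and replicate 5 was inside the H3WT range. The means were 287 ± 177 CPM and 516 ± 106 CPM, and the log2 fold change of -0.85 was the most negative of the 8 genes (edgeR adjusted p 0.459, SE 0.41). Without H3K9M replicate 5 the log2 fold change was -1.47, with an edgeR unadjusted p of 0.000176 and an adjusted p of 0.285. It was -0.58 without H3K9M replicate 3 (unadjusted p 0.215) and -0.63 without H3K9M replicate 1 (unadjusted p 0.199). Among fits without 1 library, only that without H3K9M replicate 5, the library that differed from its group, had an unadjusted p under 0.05. With all 6 libraries the unadjusted p was 0.0803 by edgeR, 0.0287 by limma-voom, 0.0103 by DESeq2 and 0.0160 by DESeq2 on the filtered genes. The adjusted p was 0.185 to 0.459 in these fits. Exons of the opposite-strand gene Gm48488 overlap Gas1 over 395 bases, and the strand setting of the counts is not stated, so reads of the pair could not be told apart there.

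Gli2, the main activator among the Gli factors, is on chromosome 1 (118834061 to 119054405, minus strand), and the 2 libraries that were low in Gas1 were low in Gli2 too. Its values were 12.5, 15.2 and 36.1 CPM in H3K9M replicates 1, 3 and 5 and 31.0, 35.6 and 28.8 CPM in H3WT replicates 1, 2 and 4. H3K9M replicates 1 and 3 were the lowest libraries, and replicate 5 was the highest of all 6. The log2 fold change was -0.58 (edgeR adjusted p 0.583, SE 0.39), on means of 21.3 ± 12.9 CPM and 31.8 ± 3.49 CPM. It was -1.19 without H3K9M replicate 5 (edgeR unadjusted p 0.000912, adjusted p 0.291), again the library that differed from its group. It was -0.31 without H3K9M replicate 1 (unadjusted p 0.418) and -0.38 without H3K9M replicate 3 (unadjusted p 0.405). The SD of Gas1 in H3K9M was 61.5% of its mean and that of Gli2 60.9%, so these were the 2 tested members above 1 CPM with the widest spread there.

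Boc, an immunoglobulin-family coreceptor for Hedgehog ligands, is on chromosome 16 (44485045 to 44558870, minus strand). It had 71.6, 58.0 and 107 CPM in H3K9M replicates 1, 3 and 5 and 87.6, 76.5 and 99.6 CPM in H3WT replicates 1, 2 and 4. The groups overlapped, with H3K9M replicate 3 lowest and H3K9M replicate 5 highest. The log2 fold change was -0.16 (edgeR adjusted p 0.833, SE 0.23) and turned to 0.03 without H3K9M replicate 3, so no direction can be given for Boc. Without H3K9M replicate 5 it was -0.43.

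Skeletal muscle markers moved with the same H3K9M libraries. All 6 markers of that list had counts in some library, and their summed level was 74.8, 125 and 12.2 CPM in H3K9M replicates 1, 3 and 5, against 26.8, 5.97 and 24.3 CPM in H3WT replicates 1, 2 and 4. Myod1, the myogenic transcription factor, had 291, 1179 and 84 counts in the H3K9M libraries and 0, 20 and 0 counts in H3WT. Myog had 60, 195 and 4 counts against 0 in each H3WT library, while Acta1, also a muscle actin gene, had counts in all 6 libraries and made up much of the H3WT sums. The 2 libraries with the highest sums were those with the least Gas1, Gli2 and Boc. In H3K9M replicate 5 the sum lay within the H3WT range. Myod1 (4.29 CPM against 0, 1.04 and 0 CPM in H3WT) and Myh3 (1.73 CPM against 0.674, 0 and 0 CPM) were still above every H3WT library there. Gas1, Gli2 and Boc were not under every H3WT library in replicate 5. Smo, Sufu, Gli3 and Ptch1 were, but they had been grouped for being lower in every H3K9M library, so this adds nothing. The part of the muscle markers in these differences was not tested. In bulk RNA, fewer cells of a type and less RNA per cell cannot be told apart. Endothelial markers summed to 0.104 to 0.825 CPM over all libraries, with Cdh5 at 0. The 6 macrophage and blood markers summed to 6.16 to 15.2 CPM in H3K9M and 3.37 to 4.32 CPM in H3WT, without overlap. In that list Cd68 had 2.61, 12.8 and 4.74 CPM against 0.618, 3.37 and 2.00 CPM (log2 fold change 1.75, edgeR adjusted p 0.411), while Ptprc, Adgre1 and Hbb-bt were at 0.

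**Figure D2:**
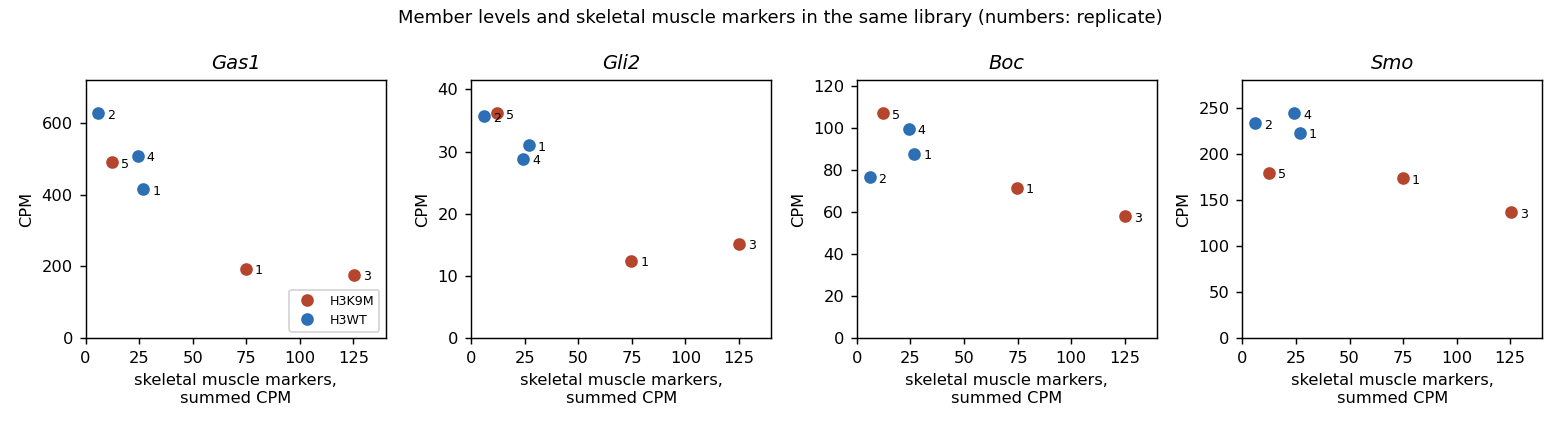
CPM of Gas1, Gli2, Boc and Smo (vertical axes, from 0) against the summed CPM of 6 skeletal muscle markers (horizontal axes) in each library, with H3K9M in red, H3WT in blue and the replicate number beside each point. H3K9M replicates 1 and 3 lie to the right at 74.8 and 125 CPM with low Gas1, Gli2 and Boc, and H3K9M replicate 5 lies at 12.2 CPM beside the H3WT libraries except in Smo. The sum includes Acta1, and Myod1 and Myh3 by themselves were higher in H3K9M replicate 5 than in every H3WT library.

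Gli3, which yields the main repressor form of the pathway and can also activate, is on chromosome 13 (15463723 to 15730026, plus strand). It had 64.3, 86.6 and 87.3 CPM in H3K9M replicates 1, 3 and 5 and 92.5, 106 and 93.1 CPM in H3WT replicates 1, 2 and 4. H3K9M replicate 1 was the lowest, and the other H3K9M libraries lay just under the H3WT libraries. The log2 fold change was -0.29 (edgeR adjusted p 0.469, SE 0.15), with means of 79.4 ± 13.1 CPM and 97.1 ± 7.50 CPM. It was -0.16 without H3K9M replicate 1. Gm6556 on the opposite strand overlaps its exons over 174 bases.

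Of the targets that usually report pathway output, Hhip was near the limit of detection, and Gli1 was low and uneven between libraries. Gli1, a transcriptional activator on chromosome 10 (127329882 to 127341579, minus strand), had 20, 6 and 20 counts in H3K9M replicates 1, 3 and 5 and 0, 49 and 2 counts in H3WT replicates 1, 2 and 4. That is 1.34, 0.29 and 1.02 CPM against 0, 2.54 and 0.118 CPM, so the H3WT libraries spanned both the lowest and the highest value. The fitted log2 fold change was -0.02 with an SE of 1.49 (adjusted p 0.997, edgeR). It depended on H3WT replicate 2, without which it was 3.78 (unadjusted p 0.0465, adjusted p 0.283), and with limma-voom it was 1.64, so no direction can be given. Exons of the opposite-strand genes Gm47200 and Arhgap9 overlap Gli1 over 265 and 62 bases.

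Hhip, a membrane protein that sequesters Hedgehog ligands, is on chromosome 8 (79965850 to 80058060, minus strand). It had 5 counts in H3WT replicate 1 and 0 in the other 5 libraries, so it did not pass the filter and entered only the 2 fits without one. A count of 0 allows up to 3 counts, which is 0.145 to 0.201 CPM in these libraries. A difference in Hhip was not detectable at this depth. Of Ptch1, Gli1 and Hhip, Ptch1 was thus the only one measured above 3 CPM.

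**Figure D3:**
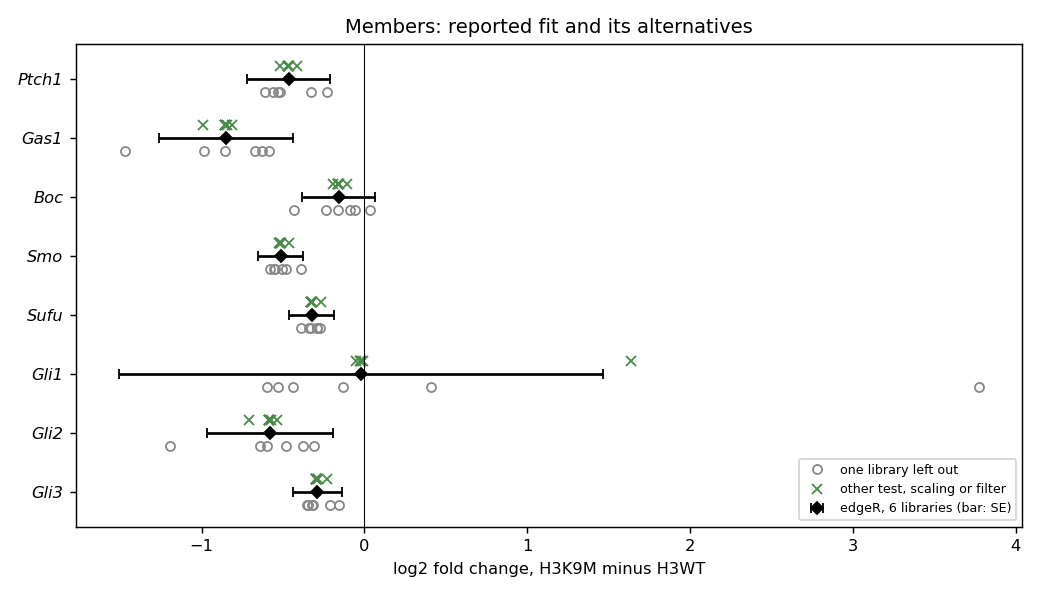
Log2 fold change, H3K9M minus H3WT (horizontal axis), of the 8 tested genes: the edgeR fit on 6 libraries with its SE (diamonds), fits that left out 1 library (circles) and fits with another test, scaling or filter (crosses). Smo, Sufu, Gli3, Ptch1, Gas1 and Gli2 stayed under 0 in all fits, whereas Boc reached 0.03 and Gli1 ranged from -0.60 to 3.78.

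Ptch1 and Smo varied together over the 6 libraries (Pearson's r of log2 CPM 0.901, exact permutation p 0.00278, Spearman's rho 0.943, exact permutation p 0.0167, two-sided). Over the 28 gene pairs computed, the Benjamini-Hochberg adjusted values were 0.0583 and 0.187, so the relation did not pass. Without the 2 libraries farthest from the median of Ptch1, r was 0.831. Gli3 and Sufu had r 0.841 (exact permutation p 0.00417, adjusted 0.0583) and rho 0.943 (exact permutation p 0.0167, adjusted 0.187), with r 0.830 without the 2 farthest libraries. These genes were lower in every H3K9M library, so the pooled values partly restate the group difference. Over deviations from the group means, r was 0.698 for Gli3 and Sufu and 0.965 for Ptch1 and Smo, as a description. Between these pairs it was negative. It was -0.882 for Ptch1 and Sufu, -0.846 for Smo and Sufu, -0.423 for Ptch1 and Gli3 and -0.318 for Smo and Gli3. For Gas1 and Gli2 no pooled value is given, because H3K9M replicates 1 and 3 formed a cluster apart from the other 4. Among all tested genes, those whose log2 CPM followed Gas1 most closely over the 6 libraries were Gm33856, Setd5, Dicer1, Hacd4 and Tor1aip1 (Pearson's r 0.977 to 0.994, the highest of 13760 genes, as a description). Gli1 was followed most closely by Tmem42, Mrpl53, Ska3, Trdmt1 and Rbx1 (r 0.976 to 0.990), but its own counts were too few to order the libraries firmly.

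The rest of the pathway was described from 5 lists by role, with 88 tested genes in all, and the ligands as a further list. Of the 88, 0 had an adjusted p under 0.05 by edgeR. An unadjusted p under 0.05 was found for 17 (19.3%, where all tested genes had 12.2%), 14 of them lower in H3K9M and 3 higher. The median log2 fold change of the 88 was -0.12, and 59 of them (67%) were below 0. The lists were drawn up with earlier results of these data known. These shares, like those of each list below, therefore do not test the pathway.

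No ligand was tested, since none passed the filter. Shh had 0 counts in every library. Ihh had 0, 7 and 1 counts in H3K9M replicates 1, 3 and 5 and 0, 4 and 6 counts in H3WT replicates 1, 2 and 4. Dhh had 0, 23 and 0 against 3, 40 and 5 counts, so its highest values were in H3K9M replicate 3 and H3WT replicate 2. Of the 6 tested genes that process or release ligands, 1 had an unadjusted p under 0.05 (16.7%, where all tested genes had 12.2%). This was Scube1, a secreted protein whose family helps to release Hedgehog from cells. It had 1.07, 1.45 and 0.408 CPM in H3K9M against 3.37, 10.3 and 5.07 CPM in H3WT, with no overlap (log2 fold change -2.67, edgeR adjusted p 0.222, SE 0.65).

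Of the 8 other tested receptors and ligand-binding proteins, 2 had an unadjusted p under 0.05 (25%, where all tested genes had 12.2%), both lower in H3K9M. Gpc3, a glypican that binds Hedgehog and competes with Ptch1 for it, had 9.24, 3.33 and 9.64 CPM in H3K9M and 26.8, 29.3 and 35.5 CPM in H3WT. Every H3K9M library had less than every H3WT library, and the log2 fold change was -2.05 (edgeR adjusted p 0.171, SE 0.39), further from 0 than that of any of the 8 tested receptor and Gli genes. Gpc2, another glypican, had a log2 fold change of -1.98 (edgeR adjusted p 0.328, SE 0.70) with overlapping groups. Cdon, the coreceptor related to Boc, had 289 ± 78.1 CPM and 275 ± 51.1 CPM, and its log2 fold change was 0.07 (edgeR adjusted p 0.931, SE 0.22).

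Of 23 tested genes of the primary cilium and of Smo trafficking, 17 were below 0 (73.9%, where all tested genes had 50.4%). An unadjusted p under 0.05 was found for 3, all lower in H3K9M. That is 13%, near the 12.2% of all tested genes. Kif7, the ciliary kinesin that works with Sufu on the Gli factors, had 15.8, 16.7 and 15.1 CPM in H3K9M replicates 1, 3 and 5 and 28.1, 25.5 and 31.8 CPM in H3WT replicates 1, 2 and 4. Both groups were tight and well apart, including H3K9M replicate 5, which differed from its group for Gas1 and Gli2. The log2 fold change was -0.84 (edgeR unadjusted p 0.00115, adjusted p 0.188, SE 0.17). Tulp3, which brings receptors into the cilium, had 82.8 ± 8.86 CPM and 114 ± 10.1 CPM (log2 fold change -0.46, edgeR adjusted p 0.255, SE 0.13), and Ift172 of the intraflagellar transport machinery had -0.45 (edgeR adjusted p 0.348, SE 0.17). The groups did not overlap for either gene.

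Kinases, ubiquitin ligases and other regulators of Gli included 12 of 20 tested genes below 0, and the median of the log2 fold changes was -0.08. An unadjusted p under 0.05 was found for 3 of the 20 (15%, where all tested genes had 12.2%). Those with an unadjusted p under 0.05 were Csnk1e, a casein kinase (-0.40, adjusted p 0.402), Mkl1, a transcriptional coactivator (-0.47, adjusted p 0.383), and Ulk3, a kinase (0.64, adjusted p 0.354, edgeR for all 3). Ulk3 was the one measured higher in H3K9M, at 17.5 ± 3.38 CPM against 11.2 ± 1.99 CPM.

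Of 31 tested genes reported elsewhere as Hedgehog targets, 8 had an unadjusted p under 0.05 (25.8%, where all tested genes had 12.2%). Of these, 6 were lower and 2 higher in H3K9M. Nkx3-2, a homeobox repressor of chondrocyte maturation, had 0.804, 1.40 and 0.816 CPM in H3K9M and 5.16, 6.80 and 3.95 CPM in H3WT. Its groups did not overlap (log2 fold change -2.38, edgeR adjusted p 0.194, SE 0.50). Snai1, a zinc-finger repressor of mesenchymal cells, had the smallest p of the pathway genes, at 106 ± 10.8 CPM and 190 ± 8.04 CPM (log2 fold change -0.84, edgeR adjusted p 0.147, SE 0.12). Osr1, a limb and joint transcription factor, had -1.23 (edgeR adjusted p 0.280, SE 0.37), and Grem1, a secreted BMP antagonist, had -1.14 (edgeR adjusted p 0.312, SE 0.37). Pax1, a sclerotome transcription factor, was measured higher in H3K9M, at 5.02, 2.42 and 3.88 CPM against 1.18, 0.830 and 2.00 CPM (log2 fold change 1.49, edgeR adjusted p 0.371, SE 0.58). These genes answer to several pathways, so they are no readout of Hedgehog alone.

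**Figure D4:**
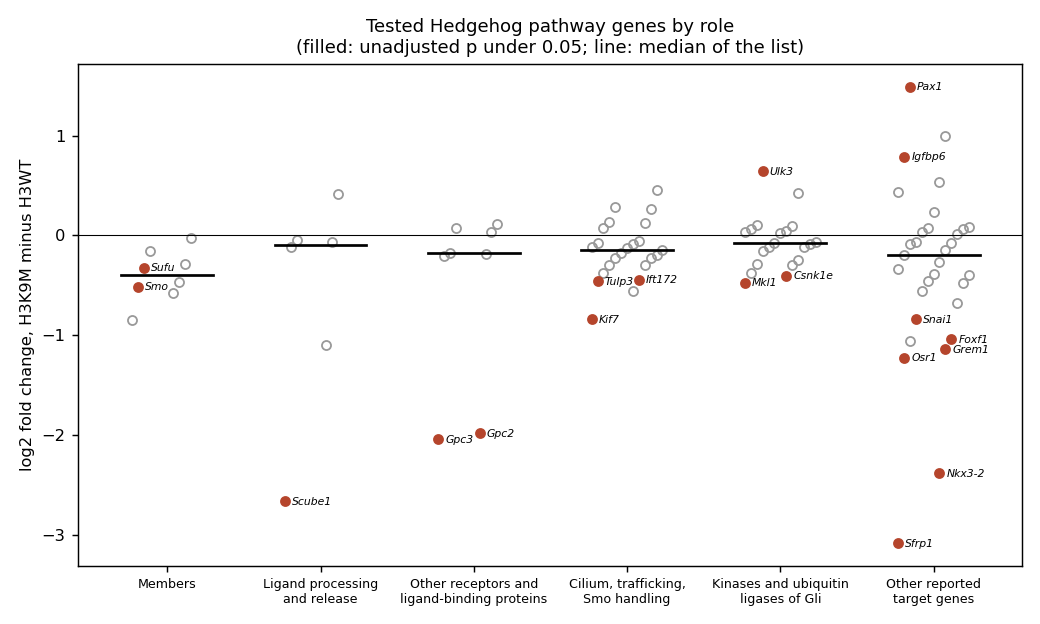
Log2 fold change, H3K9M minus H3WT (vertical axis), of each tested gene, by role (horizontal axis), with genes at an unadjusted p under 0.05 filled and named and the median of each list as a line. The medians lie between -0.39 for the receptor and Gli genes and -0.08 for kinases and ubiquitin ligases, and 0 genes passed the adjusted threshold in the edgeR fit.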

How the data were processed

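RNA of 6 libraries was analysed from raw read counts per gene symbol, deposited by the authors without normalization. HISAT2, featureCounts, DESeq2 and the build mm10 are named in the submitters' processing notes, without versions. The annotation and strand setting are not given in the sources used here. Each count column matched 1 sample title, and 0 rows lacked a symbol.

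The model was edgeR 4.0.16 in R 4.3.3 (filterByExpr, TMM, robust quasi-likelihood fit with genotype as the only term), and p-values were adjusted by Benjamini-Hochberg over 13761 genes at a threshold of 0.05. SE is the log2 fold change divided by the square root of F. Correlations used log2 CPM with a prior count of 2. An exact permutation of 3 against 3 libraries reaches 0.1 at best, so no such test was run on genes. Transcript lengths, overlaps and similar transcripts (blastn 2.17.0, at least 90% identity over 200 bases) came from GENCODE M21. Alternatives were DESeq2 1.42.0 (without the filter and, added after the data were seen, with it), limma-voom (limma 3.58.1), 2 other scalings, 2 other filters and leaving out each library. Fits were tested on counts simulated gene by gene from edgeR's own estimates of spread, with 200 of 13761 genes changed. There 9.89% of edgeR's calls and 26.3% of DESeq2's were false.

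All 9 genes are named. Other pathway genes are named if their unadjusted p was under 0.05 (at most 5 of a list, by smallest p), together with the ligands, Cdon and Kif7, and the 5 genes most like Gli1 and Gas1. A gene that the rule also names is not reported here. The members and lists were chosen with earlier results of these data known. Of the 102 pathway symbols, 101 were in the table, some under older names (Mkl1 for Mrtfa). Depth ranged from 15113675 to 19606082 counts, and a floor of 3 counts covers counting error only.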

Additional observations from a re-analysis of the deposited data

How the results depend on the processing

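No paired analysis was possible because the groups share only replicate number 1. Smo was called by DESeq2 on the filtered genes (log2 fold change -0.52, adjusted p 0.0452), an alternative added after the data were seen, and no other alternative gave any of the 8 genes an adjusted p under 0.05 (Gli1 did not pass the filter of at least 10 counts in every library). Gli1 reversed with limma-voom (1.64). Over the 6 fits that left out 1 library, Gli1 ran from -0.60 to 3.78 (3.78 without H3WT replicate 2, 0.41 without H3K9M replicate 3). Boc ran from -0.43 to 0.033, reversing without H3K9M replicate 3. The other 6 genes kept a negative sign in all 13 alternatives, with ranges without 1 library of -0.61 to -0.23 (Ptch1), -0.58 to -0.39 (Smo), -1.19 to -0.31 (Gli2), -0.35 to -0.16 (Gli3), -0.39 to -0.27 (Sufu) and -1.47 to -0.58 (Gas1). Members with an unadjusted p under 0.05 numbered 2 in the edgeR fit, and 1 with library size alone or with no filter on low counts. With limma-voom they numbered 3 (Smo, Sufu and Gas1), and with DESeq2, filtered or not, 2 (Smo and Gas1). Without 1 library they numbered 1 to 4 (4 without H3K9M replicate 5: Smo, Gli2, Gas1 and Boc). Pathway list genes at that p numbered 17, and 10 to 22 without 1 library (10 without H3WT replicate 4, 22 without H3WT replicate 2). Genes called over all genes numbered 0 in the edgeR fit and 390 with DESeq2 on the same 13761 genes. On 19994 genes, with no filter applied first, they numbered 365 with DESeq2 and 36 with edgeR. They numbered 0 to 91 without 1 library (91 without H3WT replicate 2). The cause was not tested. The median log2 fold change of all genes was 0.05 with library size alone. Hhip, Shh and Ihh are limited by depth. Gli1 and Dhh also had few counts, and both spread widely between libraries of a group. In H3WT replicates 1, 2 and 4, Gli1 had 0, 49 and 2 counts and Dhh had 3, 40 and 5.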
